A study of Zea mays with 24 samples.

Results

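Transcript levels of the maize inbred line Han21 were set directly against those of the inbred line Ye478 in seedlings under moderate drought, and each difference was looked up in the watered controls of the same lines. The comparison used the 3 arrays titled as moderate drought of Han21 and the 3 of Ye478, which are 6 of the 24 arrays of the series, and the 6 control arrays of both lines (3 each). Arrays were chosen by their titles alone. All plants were seedlings at the 3-leaf stage. The groups were Han21 under moderate drought, Ye478 under moderate drought, Han21 watered control and Ye478 watered control. The series also holds severely droughted and re-watered plants of both lines (3 arrays per group), and these groups are used here only to follow differences found under moderate drought. The labels call the tissue shoot, while the extraction protocol speaks of mesocotyls. Soil water contents and the length of the treatments are not given in the sources used here. The titles call the arrays biological replicates without naming separate plantings, so the p-values measure only the spread between these arrays.

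Han21 is known as a drought-tolerant line and Ye478 as a drought-sensitive one. A seedling that runs short of water slows cell expansion before its photosynthesis fails. Growing cells need primary walls of cellulose, loosened by expansins, and vascular and supporting cells add secondary walls of cellulose stiffened with lignin. Cellulose synthase complexes move along cortical microtubules, which are polymers of tubulin. Leaf cells that dry out or age break down chlorophyll and protein and detoxify hydrogen peroxide with catalases, and they raise dehydrins and other LEA proteins under the control of abscisic acid.

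Each array reports a signal for 17621 probe sets of maize transcripts, of which 12111 were bright enough to be tested. Signals are in arbitrary units, scaled by the authors to a common mean on each array, and are compared within a probe set only. A line difference is the mean log2 signal of Han21 minus that of Ye478, so a positive value means a higher level in Han21, and a difference of 1 is 2-fold. It is followed by its standard error from a limma model of all arrays (n = 3 arrays per group). A difference is called when its Benjamini-Hochberg adjusted p is under 0.05. A probe set whose sequence differs between the lines can give a line difference without a difference in transcript level, and the arrays cannot tell these apart. In bulk tissue, fewer cells of a type and less RNA per cell cannot be told apart either.

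Median signals were 154.4 to 192.9 units over all arrays. Replicates correlated at r = 0.978 to 0.984 between numbers 2 and 3 of a group, and at 0.961 to 0.977 where number 1 was one of the pair, so the arrays numbered 1 stood somewhat apart in all 8 groups. Of 10 genes of leaf photosynthesis, all but glk1 were bright in both lines under moderate drought. The summed signals of the 10 were 52416 to 60939 in Han21 and 48547 to 62433 in Ye478, set mostly by the brightest genes. The signal of glk1 was at most 32.3 units in Han21 and 32.8 in Ye478, below all its control arrays. These values lie under the brightness limits of the arrays, 72.6 to 106.8 units. Kernel markers were near 0, at 12.4 to 19.3 in Han21 and 5.15 to 18.3 in Ye478 for the sum of Opaque-2 and a zein gene. The root marker zrp4 gave 53.9 to 59.9 units in Han21 and 96.2 to 107.3 in Ye478, and in control 66.6 to 79.4 and 195.4 to 251.3. Of 7 control pairs that compare 3' with 5' signal, 3 did not overlap between the lines under moderate drought and 0 of 7 in control. All 3 had the lower ratio in Han21. The mean ratio was lower in Han21 for 5 of the 7 pairs under moderate drought and for 6 of 7 in control. For the elongation factor pair the log2 ratio was 0.69 ± 0.19 in Han21 and 1.17 ± 0.20 in Ye478 (SD, n = 3 each), and the part of RNA integrity in the line differences was not tested.

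Under moderate drought, 5170 of 12111 probe sets differed between the lines (42.7%). Of these, 2755 were higher in Han21 (22.7%) and 2415 lower (19.9%). In control, 3944 probe sets differed (32.6%). The median size of a line difference over all tested probe sets was 0.37 under moderate drought and 0.29 in control. Called differences of at least 2-fold numbered 2304 under moderate drought (19.0%) and 1704 in control. The 3 arrays of one line lay beyond the 3 of the other for 6046 probe sets under moderate drought (49.9%).

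The called probe sets were sorted by their state in the control arrays. A difference counts here as absent from control when it was not called there, when the 95% confidence interval of the control difference lay within 1 log2 unit of 0, and when the line difference under moderate drought minus that in control was itself called. That last quantity is named the change of the line difference below, and it was called for 986 probe sets (8.14%), with 533 above 0 (4.4%) and 453 below 0 (3.74%). By these criteria 445 differences were absent from control, which is 8.61% of the 5170 and 3.67% of all tested. They comprised 263 higher and 182 lower in Han21, and 251 of the 445 were at least 2-fold. Another 2941 differences (56.9% of the called) were called in control with the same sign, and 56 were called in control with the opposite sign. The other 1728 (33.4% of the called and 14.3% of all tested) could not be placed, because the control difference was uncalled but the change of the line difference was uncalled too or the control interval was wide. The count of absent differences depended on the arrays: it was 705 in a fit blocked by replicate number, and 240, 115 and 195 without all arrays numbered 1, 2 and 3.

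**Figure D1:**
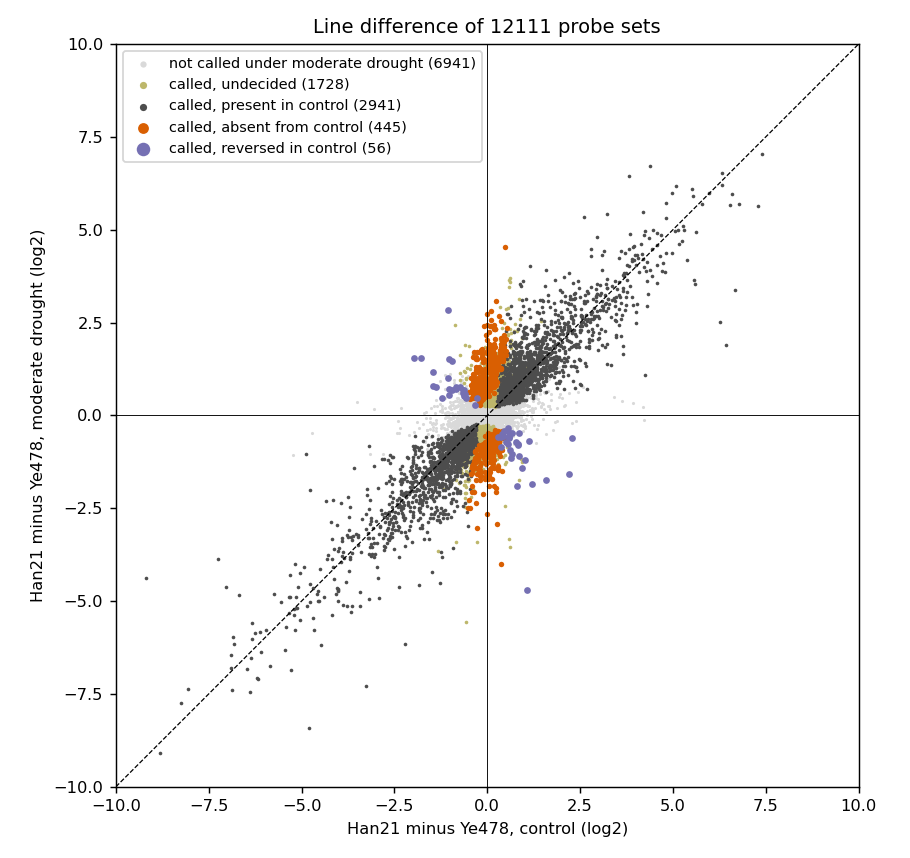
Line difference (Han21 minus Ye478, log2) of each of the 12111 tested probe sets in control on the horizontal axis and under moderate drought on the vertical axis, coloured by its state in control. The 2941 differences present in control run along the dashed line of equal values, the 445 absent ones stand above and below 0 on the vertical axis only, and the 56 reversed ones lie in the other quadrants.

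Among the 263 probe sets higher in Han21 and absent from control, the transcript had mostly fallen in Ye478. It was called lower under moderate drought than in control in Ye478 but not in Han21 for 102, and in both lines for 106. It was called higher in Han21 but not in Ye478 for 33, higher in both for 10, and opposite in the lines for 12. The 182 lower in Han21 included 83 with a call of a rise in Ye478 alone, 46 with a call of a fall in Han21 alone, 23 that rose in both lines, 12 that fell in both and 17 that went opposite ways. Over all tested probe sets, 5002 responded to moderate drought in Han21 (41.3%) and 5886 in Ye478 (48.6%). The line differences absent from control ranged from -4.0 to 4.53, with medians of 1.16 for those higher and -1.01 for those lower in Han21. Line differences were called for 44.4% of all tested probe sets in severe drought and 44.0% after re-watering. Many of the absent class persisted into severe drought, where 182 of the 263 (69.2%) and 139 of the 182 (76.4%) were called in the same direction, against 24.7% and 19.7% of all tested probe sets called higher and lower. After re-watering the same counts were 84 (31.9%) and 77 (42.3%), against 24.3% and 19.8% of all tested. For differences present in control, the same shares were larger, at 82.7% and 79.8% in severe drought and 71.2% and 75.6% after re-watering. For those that could not be placed, they were 54.2% and 49.9% in severe drought and 33.0% and 33.9% after re-watering.

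**Figure D2:**
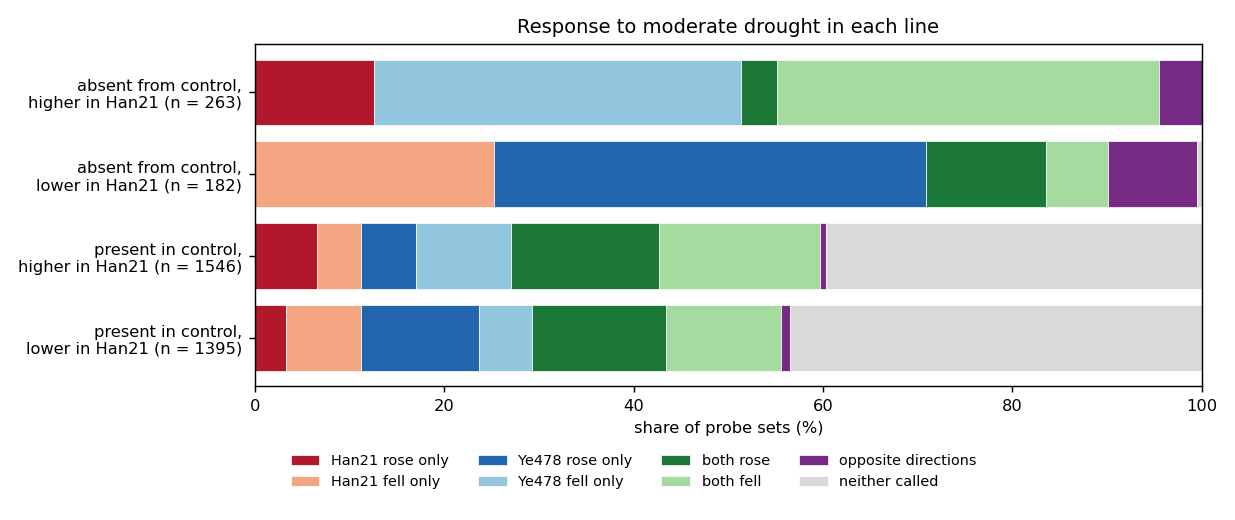
Share of probe sets (%) by the call of the response to moderate drought against control in each line, for differences absent from control (263 higher and 182 lower in Han21) and present in control (1546 higher and 1395 lower). Falls in Ye478, alone or with Han21, make up most of the top bar, and rises in Ye478 alone are the largest piece of the second.

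Most tested genes of the cell wall were higher in Han21. Of 23 tested genes for expansins, cellulose synthases and related wall proteins, 15 were higher in Han21, 4 were lower and 4 were not called. Among all tested probe sets, 22.7% were called higher and 19.9% lower. The median line difference of the 23 genes was 1.29, against 0.25 for the same genes in control and 0.02 for all tested probe sets under moderate drought. Moderate drought lowered 18 of the 23 in Ye478 (median of -1.50) and 12 in Han21 (median of -0.60), where 25.0% and 22.0% of all tested probe sets were called lower. Of the 19 called, 6 were absent from control, 9 were present in control and 4 could not be placed. For all called probe sets these shares were 8.61%, 56.9% and 33.4%.

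The cellulose synthases of the secondary wall, cesa10, cesa11 and CesA12, shared this pattern. For cesa11, the signals were 1212, 856 and 890 units in Han21 and 199, 137 and 120 in Ye478 under moderate drought, against 1178, 886 and 1060 in Han21 controls and 926, 760 and 799 in Ye478 controls. The Ye478 drought arrays lay far below all the others, and the controls overlapped. The line difference was 2.68 ± 0.32 (adjusted p = 4.4e-07) under moderate drought and 0.32 ± 0.32 (adjusted p = 0.49) in control. The change of the line difference, 2.35 ± 0.45, was lost without the arrays numbered 3 (adjusted p = 0.055).

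CesA12 gave 716, 616 and 752 units in Han21 and 138, 157 and 158 in Ye478 under moderate drought, and 987, 711 and 1116 against 850, 911 and 1105 in control. Again only the drought arrays of the lines were separate. Its line difference was 2.17 ± 0.20 (adjusted p = 1.2e-08), and -0.04 ± 0.20 in control (95% confidence interval -0.46 to 0.37). In Ye478 it fell by 2.62 under moderate drought, while the value for Han21 was -0.41 and was not called (adjusted p = 0.11). cesa10 differed already in control, by 0.94 ± 0.21, and the difference was 3.10 ± 0.21 under moderate drought. bk2, which encodes the COBRA-like protein of brittle stalk mutants and is needed for secondary wall cellulose, had 743, 798 and 976 units in Han21 and 112, 99.9 and 98.9 in Ye478 under moderate drought. Its controls, at 556, 773 and 818 units in Han21 and 438, 475 and 445 in Ye478, were separate too but closer. This gave a line difference of 2.96 ± 0.19 under moderate drought and 0.64 ± 0.19 in control, and its change was 2.32 ± 0.27 (adjusted p = 1.2e-05).

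**Figure D3:**
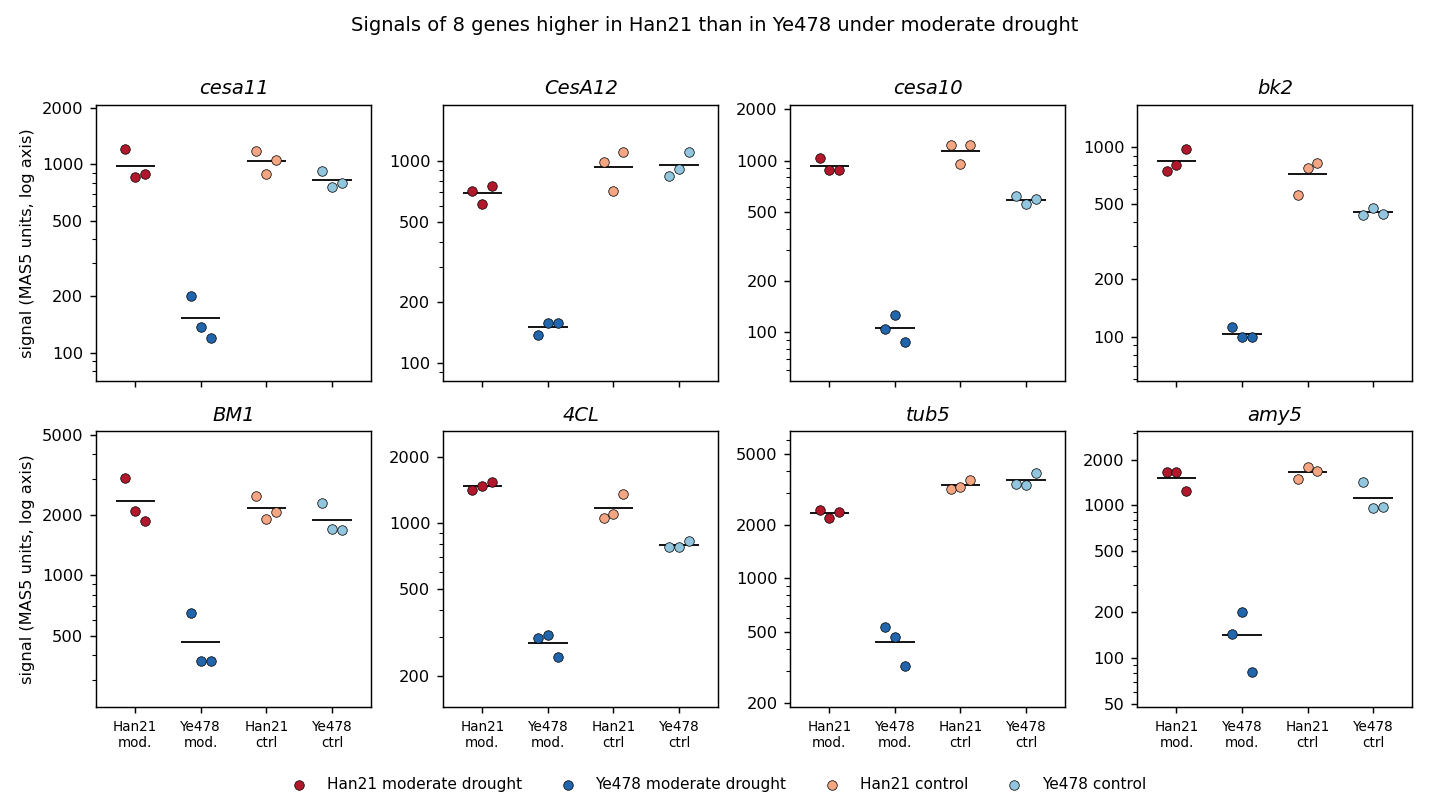
Signal on each array (MAS5 units, log axis) of 8 genes in Han21 and Ye478 under moderate drought and in Han21 and Ye478 controls, with a point per array and a line at the mean of 3. In every panel the 3 Ye478 arrays of moderate drought lie below the other 9, as for CesA12 at 138 to 158 units against 616 to 1116.

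Primary-wall cellulose synthases moved the same way by smaller amounts. cesa7 had 3616, 3169 and 3213 units in Han21 and 1372, 1396 and 1124 in Ye478, a difference of 1.36 ± 0.13 (adjusted p = 3.1e-08), against 0.24 ± 0.13 in control. CesA-4 differed by 1.33 ± 0.17 under moderate drought and 0.26 ± 0.17 in control, and another probe set of the gene gave 1.36 and 0.30. Its change of the line difference was not called without the arrays numbered 1 or 2 (adjusted p up to 0.12). CesA-9 was present in control at 0.89 ± 0.18 and wider under moderate drought at 2.42 ± 0.18, a change of 1.54 ± 0.26.

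Expansins loosen the wall of growing cells. The α-expansin gene expa1 gave 1000, 775 and 828 units in Han21 and 154, 81.9 and 19.4 in Ye478 under moderate drought, against 4562, 3961 and 3171 in Han21 controls and 2595, 2415 and 2704 in Ye478 controls. It fell in both lines, and further in Ye478. Han21 and Ye478 differed by 3.65 ± 0.49 (adjusted p = 2.8e-06), against 0.58 ± 0.49 in control, whose interval of -0.44 to 1.61 was too wide to call the difference absent. The change, 3.07 ± 0.70, was not called without the arrays numbered 2 or 3 (adjusted p up to 0.15). For the β-expansin gene expB6 the line difference was 3.12 ± 0.24 under moderate drought and 1.48 ± 0.24 in control, and the change was 1.64 ± 0.33, which was lost without the arrays numbered 2 (adjusted p = 0.072). The 4 genes of the list that were lower in Han21 were expB3, xet1, expA4 and expB4, at -3.50, -1.89, -0.96 and -0.58, named here after their values were seen.

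All 4 tested genes of phenylpropanoid and lignin synthesis were higher in Han21, where 22.7% of all tested probe sets were called higher. Their median line difference was 2.17, against 0.30 in control. 4CL, for 4-coumarate:CoA ligase, which activates the acids from which lignin is built, had 1416, 1469 and 1539 units in Han21 and 299, 309 and 244 in Ye478 under moderate drought. In control it had 1049, 1100 and 1355 in Han21 and 780, 777 and 830 in Ye478, which did not overlap either. The line difference was 2.36 ± 0.21 (adjusted p = 7.3e-09) under moderate drought. In control it was 0.54 ± 0.21 and just missed the threshold (adjusted p = 0.054), with an interval of 0.10 to 0.98 that only just met the limit for an absent difference.

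BM1, the cinnamyl alcohol dehydrogenase gene of the brown midrib mutant bm1, gave 3061, 2087 and 1861 units in Han21 and 646, 373 and 376 in Ye478 under moderate drought. Its controls overlapped, at 2476, 1915 and 2068 in Han21 and 2289, 1692 and 1680 in Ye478. On the log2 scale the lines differed by 2.33 ± 0.27 (adjusted p = 3e-07), against 0.20 ± 0.27 in control. ccr2, for a cinnamoyl-CoA reductase of the same branch, differed by 2.0 ± 0.28 under moderate drought and 0.40 ± 0.28 in control. The change of the line difference was not called for BM1 without the arrays numbered 2 (adjusted p = 0.077), nor for ccr2 without those numbered 1 or 2 (adjusted p up to 0.24). pal3, for phenylalanine ammonia-lyase at the entry of the pathway, showed a smaller difference of 0.71 ± 0.15, and its change, 0.63 ± 0.21, was not called (adjusted p = 0.067, and 0.037 with replicate number as a block).

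Tubulin genes had the same direction. Of 15 tested genes for tubulin, actin and proteins that bind actin, 8 were higher in Han21 and 0 lower, with a median line difference of 0.62, against 0.01 in control. Among all tested probe sets, 22.7% were called higher and 19.9% lower. All 8 code for tubulins, and 4 of them were absent from control, against 8.61% of all called probe sets. In Ye478, 11 of the 15 fell under moderate drought, and in Han21 6 did, where 25.0% and 22.0% of all tested probe sets were called lower. The β-tubulin gene tub5 had 2419, 2173 and 2344 units in Han21 and 530, 466 and 320 in Ye478 under moderate drought, against 3191, 3263 and 3562 in Han21 controls and 3363, 3341 and 3924 in Ye478 controls. The control arrays of the lines overlapped, and the line difference was 2.42 ± 0.25 under moderate drought (adjusted p = 7.6e-08) and -0.08 ± 0.25 in control. A further probe set of tub5 gave 2.43 and -0.02.

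The α-tubulin gene tua5 differed by 1.23 ± 0.13 under moderate drought (adjusted p = 5.8e-08) and by -0.07 ± 0.13 in control. tua6 differed by 0.94 ± 0.15, with a change of 0.66 ± 0.21 that was not called (adjusted p = 0.063, and 0.014 with the block). For the β-tubulin gene TUBB2 the difference was present in control, at 2.22 ± 0.21, and was 2.79 ± 0.21 under moderate drought. krp6, a gene for a kinesin, a motor that walks on microtubules, had 441, 410 and 363 units in Han21 and 53.4, 79.6 and 65.8 in Ye478. In control it had 575, 598 and 622 in Han21 and 382, 551 and 466 in Ye478. The drought arrays were widely separate, the control arrays narrowly so. Its line difference was 2.54 ± 0.22 (adjusted p = 3.8e-09), against 0.37 ± 0.22 in control. The difference was not carried into severe drought, where it was -0.12 (adjusted p = 0.67).

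Several genes of starch and sugar metabolism were higher in Han21. amy5, which codes for a β-amylase, had 1650, 1654 and 1242 units in Han21 and 144, 201 and 80.8 in Ye478 under moderate drought. Its controls were 1498, 1797 and 1676 in Han21 and 1416, 958 and 980 in Ye478. The 3 Ye478 drought arrays stood alone at the bottom. The line difference was 3.45 ± 0.32 (adjusted p = 1.2e-08), against 0.59 ± 0.32 in control, and the change was 2.87 ± 0.45 (adjusted p = 0.00029). Since the control interval reached 1.25, the difference could not be called absent there.

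In a pair of other genes the higher level in Han21 came with a rise in Han21. GBSSIIa, the granule-bound starch synthase of leaves, gave 423, 371 and 304 units in Han21 and 78.3, 107 and 91.4 in Ye478 under moderate drought, against 139, 117 and 143 in Han21 controls and 97.3, 80.5 and 138 in Ye478 controls. It rose by 1.42 in Han21 and gave -0.16 in Ye478, which was not called. The resulting line difference was 1.94 ± 0.23 (adjusted p = 5.5e-07), against 0.36 ± 0.23 in control. ivr2, for a vacuolar invertase that splits sucrose, had 3351, 3000 and 3829 units in Han21 and 1084, 1184 and 1241 in Ye478, against 860, 831 and 734 in Han21 controls and 572, 576 and 749 in Ye478 controls. It was raised in both lines, more in Han21, and differed by 1.53 ± 0.16 under moderate drought and 0.36 ± 0.16 in control. Neither change of the line difference was called without the arrays numbered 2 (adjusted p of 0.052 for GBSSIIa and 0.054 for ivr2).

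ss1, a starch synthase gene, was higher in Han21 by 0.47 ± 0.16 under moderate drought and lower by -0.57 ± 0.16 in control, and it is one of the 56 reversed probe sets. The drought difference was no longer called without Han21 moderate replicate 2, Ye478 moderate replicate 1 or Ye478 moderate replicate 3 (adjusted p up to 0.08). Without the arrays numbered 1 or 2, both the drought difference (adjusted p up to 0.12) and the change (adjusted p up to 0.087) were lost. Over all tested probe sets, 22.7% were called higher in Han21 and 19.9% lower. Of 7 tested starch genes, 3 were higher in Han21 and 2 lower, and of 7 genes of sucrose synthesis and cleavage 3 were higher and 0 lower. The sucrose synthase gene sus1 belonged to the second list, with 3499, 2978 and 2252 units in Han21 and 1987, 1097 and 1083 in Ye478 under moderate drought. The drought difference was 1.10 ± 0.27, and the value in control was -0.01 ± 0.27, which was not called. That call was lost without the arrays numbered 2 (adjusted p = 0.12), and the change of 1.11 ± 0.39 was not called (adjusted p = 0.088, and 0.0012 with the block). Among 12 genes of glycolysis and fermentation, 4 were higher and 2 lower, where 42.7% of all tested probe sets were called. gpc4, for cytosolic glyceraldehyde-phosphate dehydrogenase, had 182, 117 and 112 units in Han21 and 35.7, 31.2 and 25.5 in Ye478, a difference of 1.98 ± 0.22, against 0.44 ± 0.22 in control. The change, 1.54, was lost without the arrays numbered 2 (adjusted p = 0.059).

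The genes lower in Han21 included a gene of chlorophyll breakdown, lls1, and several genes for proteases. lls1 encodes pheophorbide a oxygenase, which opens the ring of chlorophyll breakdown products and was named for lethal leaf spot mutants. It gave 1233, 1358 and 1085 units in Han21 and 2962, 3322 and 3244 in Ye478 under moderate drought, against 1167, 962 and 973 in Han21 controls and 1008, 1240 and 1287 in Ye478 controls. The Ye478 drought arrays were the high ones, and the other 9 overlapped. Between the lines the difference was -1.37 ± 0.15 (adjusted p = 8.5e-08), against -0.19 ± 0.15 in control (interval -0.49 to 0.12). Ye478 rose by 1.43, while Han21 showed 0.24 (adjusted p = 0.23).

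BCH2, for a β-carotene hydroxylase of xanthophyll synthesis, had 2690, 3223 and 2477 units in Han21 and 5100, 4881 and 4968 in Ye478 under moderate drought, and all control arrays of both lines lay between 1376 and 1640. It rose in both lines and further in Ye478. The line difference was -0.84 ± 0.10 (adjusted p = 5.3e-07), against -0.01 ± 0.10 in control.

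Of 7 tested genes for cysteine proteases and senescence, 5 were lower in Han21 and 0 higher, with a median line difference of -0.76, against 0.01 in control. Among all tested probe sets, 19.9% were called lower and 22.7% higher. None of the 7 was called in control, where 32.6% of all tested probe sets were. The criteria for an absent difference were met by 4 of the 5, against 8.61% of all called probe sets. Moderate drought raised 4 of the 7 in Ye478 and 0 in Han21, where 23.6% and 19.3% of all tested probe sets were called higher. The cysteine protease gene mir3 gave 2510, 3020 and 3989 units in Han21 and 6237, 6819 and 8108 in Ye478 under moderate drought, and its controls overlapped, at 3106, 3408 and 4370 in Han21 and 3749, 4094 and 4970 in Ye478. Its line difference was -1.17 ± 0.17 (adjusted p = 6.2e-06), and another probe set gave -1.10. mir2, of the same family, differed by -0.95 ± 0.19.

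The legumain-like proteases of see2a and see2b, which process proteins in vacuoles, differed by -0.76 ± 0.13 and -0.57 ± 0.13. These were small differences, and the change of the line difference rested on single arrays in all 4 genes. For mir3 it was lost without Han21 moderate replicate 1, Ye478 moderate replicate 3 or Han21 control replicate 3 (adjusted p up to 0.053), and for see2a without Han21 moderate replicate 2 or Han21 control replicate 3 (adjusted p up to 0.053). For mir2 it was lost without any array but Ye478 moderate replicate 1 and Ye478 control replicate 3, with adjusted p up to 0.13. For see2b it was lost without any array but Han21 moderate replicate 3, Ye478 moderate replicate 1, Ye478 control replicate 2 and Ye478 control replicate 3, with adjusted p up to 0.11. Without one replicate number the adjusted p of the change reached 0.25 for mir3, 0.24 for mir2, 0.19 for see2a and 0.37 for see2b. Without all arrays numbered 2, 3 of the 7 genes were called lower.

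**Figure D4:**
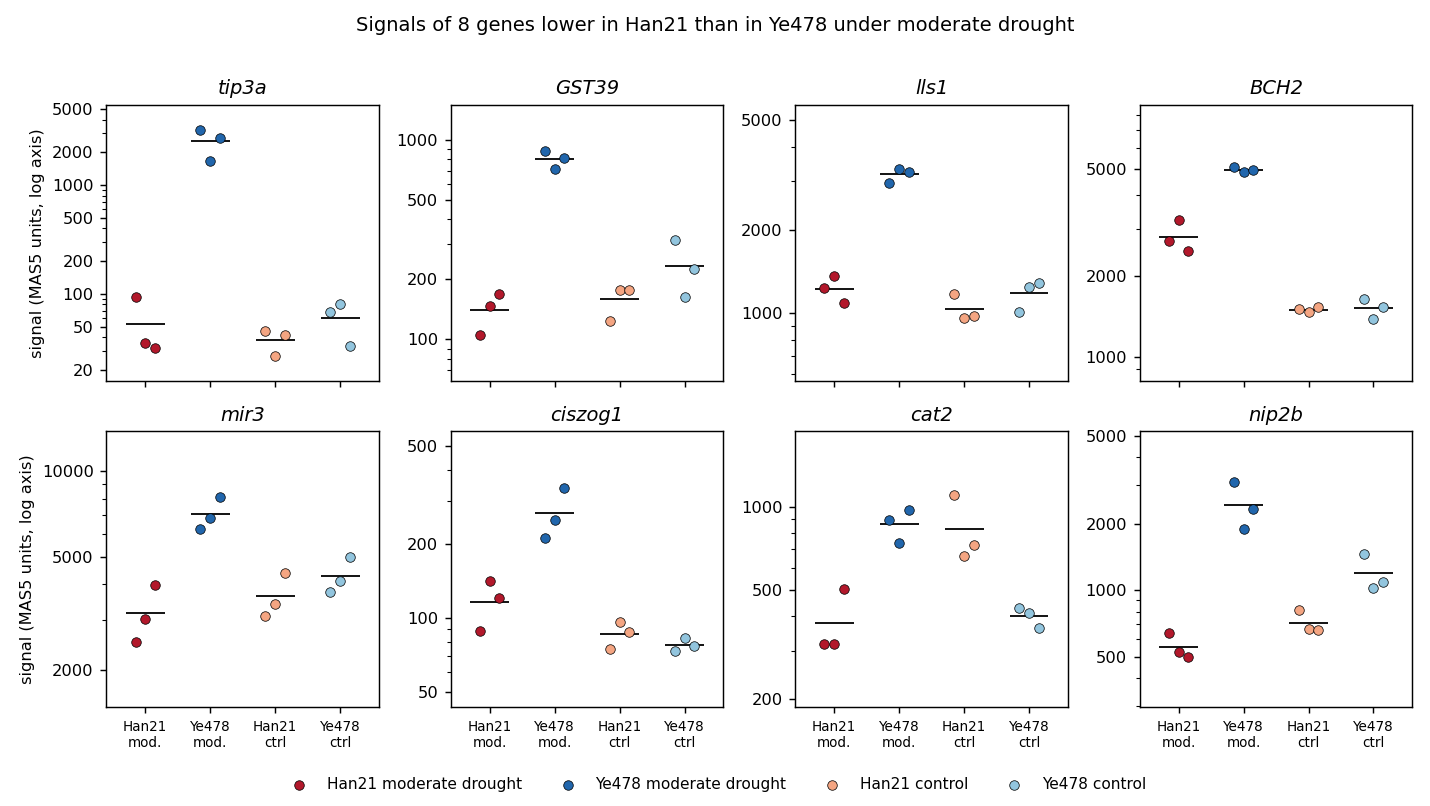
Signal on each array (MAS5 units, log axis) of 8 genes in Han21 and Ye478 under moderate drought and in Han21 and Ye478 controls, with a point per array and a line at the mean of 3. The 3 Ye478 drought arrays are above the 3 Han21 drought arrays in every panel, and in cat2 the order of the lines is the other way round in control, at 662 to 1104 units in Han21 and 364 to 427 in Ye478.

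Genes for antioxidant enzymes and metal-binding proteins were mostly lower in Han21: 7 of 10 tested were lower and 1 higher, with a median line difference of -0.79, against -0.26 in control. Shares of all tested probe sets were 19.9% lower and 22.7% higher. Of the 10 genes, 0 had a difference absent from control, 4 were present there, 1 was reversed and 3 could not be placed. Catalases break down hydrogen peroxide. cat2 had 318, 318 and 503 units in Han21 and 895, 737 and 971 in Ye478 under moderate drought, against 1104, 662 and 727 in Han21 controls and 427, 413 and 364 in Ye478 controls. The lines were separate in both conditions, in opposite order. This is a line difference of -1.21 ± 0.20 (adjusted p = 4.8e-05) under moderate drought and 1.01 ± 0.20 (adjusted p = 0.00049) in control. Its change, -2.22 ± 0.29 (adjusted p = 3.8e-05), came with a fall of -1.12 in Han21 and a rise of 1.10 in Ye478.

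CAT3 was lower in Han21 in both conditions, at 1601, 1682 and 1929 units in Han21 and 5723, 5268 and 4841 in Ye478 under moderate drought. The line difference was -1.60 ± 0.17 under moderate drought and -2.03 ± 0.17 in control. cat1 differed by -0.80 ± 0.11 under moderate drought and -0.30 ± 0.11 in control, and the change of -0.49 ± 0.16 was not called (adjusted p = 0.064, and 0.013 with the block). The ferritin gene fer2, for an iron store, differed by -1.14 ± 0.14 and -0.97 ± 0.14 in the same order.

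Aquaporin genes split. Of 25 tested, 5 were higher in Han21 and 9 lower, where 22.7% and 19.9% of all tested probe sets were called so. Their median line difference of -0.06 was near that of all probe sets. The change of the line difference was called above 0 for 1 of the 25 and below 0 for 7, against 4.4% and 3.74% of all tested. One of the 9 lower genes was tip3a, a tonoplast aquaporin gene best known from seeds. It gave 92.9, 35.5 and 31.9 units in Han21 and 3201, 1684 and 2726 in Ye478 under moderate drought. In control it gave 45.1, 26.8 and 42.2 in Han21 and 68.2, 80.0 and 33.3 in Ye478, all under or within the brightness limits of the arrays, 72.6 to 106.8 units. The 3 Ye478 drought arrays were the bright ones among these 12. The lines differed by -5.56 ± 0.54 (adjusted p = 2.9e-08), against -0.56 ± 0.54 in control, and the change was -5.0 ± 0.77 (adjusted p = 0.00021). Since Han21 gave dim signals, the size of these values rests on the background and on the constant of the log2 transform, and the drought difference ran from -6.01 to -5.21 over the alternatives. It was -4.52 after re-watering (adjusted p = 6.8e-07).

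Among plasma membrane aquaporins, pip2d had 1670, 1371 and 1647 units in Han21 and 516, 445 and 515 in Ye478 under moderate drought. Its controls were 2349, 1835 and 2088 in Han21 and 1951, 2137 and 2104 in Ye478, which overlapped. The difference was 1.66 ± 0.17 (adjusted p = 3.8e-08), against 0.01 ± 0.17 in control. pip2b went the other way, at -2.09 ± 0.29, with a change of -1.52 ± 0.41 that was lost without any of Han21 moderate replicates 1 and 2, Ye478 moderate replicate 3, Han21 control replicate 3 and Ye478 control replicate 2 (adjusted p up to 0.069). That change was also lost without the arrays numbered 1 or 2 (adjusted p up to 0.24). The 2 probe sets of pip2c disagreed, at -1.31 ± 0.19 for the brighter and 0.76 for the other, so no direction is given for that gene. nip2b, of the NOD26-like aquaporins, had 638, 528 and 501 units in Han21 and 3082, 1887 and 2338 in Ye478, and its difference was -2.10 ± 0.23 under moderate drought and -0.72 ± 0.23 in control, with a change lost without the arrays numbered 2 or 3 (adjusted p up to 0.14). The tonoplast aquaporin gene tip4a was higher in Han21 by 1.25 ± 0.27.

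Glutathione S-transferases couple glutathione to reactive compounds. Of 28 tested genes of the family, 12 were higher in Han21 and 5 lower, with a median of 0.43, against 0.26 in control. The shares of all tested probe sets were 22.7% higher and 19.9% lower. gst12 had 1596, 1642 and 1007 units in Han21 and 113, 60.3 and 76.0 in Ye478 under moderate drought, against 2075, 1630 and 1069 in Han21 controls and 651, 809 and 623 in Ye478 controls. The lines were separate in both conditions, much more so under drought. The log2 difference between the lines was 4.03 ± 0.25 (adjusted p = 2.7e-11) under moderate drought and 1.15 ± 0.25 in control, and the change was 2.88 ± 0.36. gst5 and gst23 were also present in control, with drought differences of 2.11 ± 0.22 and 1.67 ± 0.18. Their changes, 1.17 and 0.92, were called in 18 and 13 of 24 alternatives. That of gst5 was lost without any one replicate number (adjusted p up to 0.12 over the alternatives), and that of gst23 without those numbered 1 or 2, with quantile normalization and with median centring (adjusted p up to 0.27 over the alternatives). GST39 went the opposite way, with 105, 148 and 169 units in Han21 and 880, 716 and 815 in Ye478 under moderate drought, against 124, 178 and 178 in Han21 controls and 314, 163 and 226 in Ye478 controls. Its line difference was -2.50 ± 0.23 (adjusted p = 1.2e-08), against -0.51 ± 0.23 in control, whose interval of -0.99 to -0.03 only just met the limit for an absent difference. The change was not called without the arrays numbered 2 (adjusted p = 0.055), and without them 11 genes of the family were called.

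Other genes with differences absent from control had varied roles. ciszog1, for an enzyme that stores the cytokinin cis-zeatin as a glucoside, had 88.0, 141 and 120 units in Han21 and 212, 250 and 339 in Ye478 under moderate drought, while all 6 controls lay between 73.3 and 95.9. The line difference was -1.16 ± 0.22 (adjusted p = 0.00014), against 0.13 ± 0.22 in control. Its change was not called without any one of the 3 replicate numbers (adjusted p up to 0.10). abcf1, for a member of the F group of ABC proteins, differed by -1.40 ± 0.19, and its change was not called without the arrays numbered 2 or 3 (adjusted p up to 0.25). glu2, for a β-glucosidase, differed by 0.78 ± 0.19, with a control value of -0.31 ± 0.19 whose arrays did not overlap, and its change was not called without the arrays numbered 1 or 2 (adjusted p up to 0.15).

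The probe sets of cda1 and cda2 gave nearly the same signals, so they may measure the same transcripts. cda1 had 564, 461 and 462 units in Han21 and 1379, 1640 and 1442 in Ye478 under moderate drought, and the controls lay between 1080 and 1322 in both lines. Han21 fell by 1.30 and Ye478 rose by 0.32. That is a line difference of -1.58 ± 0.12 for cda1 and -1.56 ± 0.14 for cda2, against 0.03 for each in control. A second probe set of cda2 gave -0.19 and was not called.

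Some wide differences under moderate drought were present in control. spds2, for a spermidine synthase, had 2.94, 8.10 and 3.26 units in Han21 and 1420, 1680 and 1670 in Ye478 under moderate drought. In control it had 6.25, 2.86 and 2.25 in Han21 and 669, 695 and 675 in Ye478. The Han21 arrays were at background level throughout, so the size of the line difference, -7.46 ± 0.33 under moderate drought and -6.39 ± 0.33 in control, rests on the constant used in the log2 transform and ran from -8.54 to -6.13 over the alternatives. AGA1, for an alkaline α-galactosidase that releases galactose from raffinose sugars, had 368, 433 and 354 units in Han21 and 11251, 11056 and 9047 in Ye478, a difference of -4.75 ± 0.76, against -3.43 ± 0.76 in control. Also lower in Han21 in both conditions were mstr1, for a monosaccharide transporter (-3.72 ± 0.21 and -3.03 ± 0.21 in control), and prpo1, for protoporphyrinogen oxidase of chlorophyll and haem synthesis (-3.34 ± 0.21 and -4.19 ± 0.21). The auxin-binding protein gene abp4 differed by -2.64 ± 0.11 and -2.40 ± 0.11. In the fit reported here, the change of the line difference was not called for these 5 genes. With the block it was called for prpo1 (adjusted p = 0.046).

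In other genes the difference in control widened. mas1, for malate synthase of the glyoxylate cycle, had 257, 290 and 200 units in Han21 and 2370, 2307 and 2954 in Ye478 under moderate drought, against 143, 118 and 138 in Han21 controls and 362, 429 and 568 in Ye478 controls. The lines were separate in both conditions. Its line difference was -3.34 ± 0.24 under moderate drought and -1.71 ± 0.24 in control, a change of -1.62 ± 0.33 (adjusted p = 0.0032) that was lost without the arrays numbered 1 (adjusted p = 0.075). FDX6, for a ferredoxin, changed by -1.28 ± 0.28 to reach -2.88 ± 0.20 under moderate drought, and the glutamine synthetase gene GLN6 by -1.09 ± 0.23 to reach -2.13 ± 0.16. Those changes were lost without the arrays numbered 2 or 3 for FDX6 (adjusted p up to 0.12) and 1 or 3 for GLN6 (adjusted p up to 0.067). The line difference of trm1, for a thioredoxin of the m type, was not called in control (-0.59 ± 0.26, adjusted p = 0.086) and stood at -2.23 ± 0.26 under moderate drought. Its change, -1.64 ± 0.36, was not called without the arrays numbered 2 (adjusted p = 0.11).

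Oxylipin genes differed in both directions, in a share near that of all tested probe sets. Of 9 tested, 2 were higher in Han21 and 2 lower under moderate drought, and these 4 were present in control, where 2 were higher and 4 lower. lox3, for a lipoxygenase that adds oxygen at position 9 of fatty acids, had 1971, 2921 and 3464 units in Han21 and 125, 154 and 231 in Ye478 under moderate drought, against 714, 1087 and 1303 in Han21 controls and 67.6, 28.9 and 60.8 in Ye478 controls. Both lines rose, and the line difference of 4.01 ± 0.31 was close to the 4.22 ± 0.31 of control. aoc1, for the allene oxide cyclase of jasmonate synthesis, gave 2.48 ± 0.24 with its brighter probe set and -0.15 with another, which was at -2.39 in control (adjusted p = 3.5e-06), so the probe sets disagree. The oxophytodienoate reductase genes opr5 and opr7 differed by -2.32 ± 0.16 and -2.06 ± 0.45.

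The heat shock and chaperone list, with 11 tested genes, had 4 higher and 1 lower in Han21. Of all tested probe sets, 22.7% were called higher and 19.9% lower. hsp101, for a chaperone that dissolves protein aggregates, gave 1275, 1612 and 1150 units in Han21 and 206, 172 and 191 in Ye478 under moderate drought, a difference of 2.79 ± 0.21, against 1.98 ± 0.21 in control. bip2, for a chaperone of the endoplasmic reticulum, differed by 2.17 ± 0.20 and 1.27 ± 0.20 in control, with a change of 0.90 ± 0.28 (adjusted p = 0.049). That change was called in 7 of 24 alternatives, and it was lost with quantile normalization, with median centring and without any one replicate number (adjusted p up to 0.25 over the alternatives). The ribosomal protein gene rps21b differed by 3.19 ± 0.18 under moderate drought and 3.47 ± 0.18 in control, and 3 of 12 tested ribosomal protein genes were higher and 1 lower.

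A few differences of the control arrays narrowed under moderate drought. asn1, for asparagine synthetase, had 4455, 6089 and 4836 units in Han21 and 11062, 11281 and 9619 in Ye478 under moderate drought, against 157, 207 and 133 in Han21 controls and 992, 1033 and 1024 in Ye478 controls. It rose steeply in both lines and stayed lower in Han21. Its line difference was -1.06 ± 0.19 under moderate drought and -2.61 ± 0.19 in control, a change of 1.55 ± 0.26 (adjusted p = 0.00061). Another probe set of asn1 did not narrow, at -1.14 under moderate drought and -0.30 in control (adjusted p = 0.45), so the probe sets disagree on the change. PPCK1, for the kinase that activates phosphoenolpyruvate carboxylase, had 3209, 2773 and 3196 units in Han21 and 1296, 1119 and 1269 in Ye478 under moderate drought, against 1092, 936 and 962 in Han21 controls and 166, 197 and 194 in Ye478 controls. Its difference was 1.31 ± 0.16 under moderate drought and 2.40 ± 0.16 in control, and the change was lost without the arrays numbered 1 or 2 (adjusted p up to 0.09). fht1, for flavanone 3-hydroxylase of flavonoid synthesis, had a difference of 2.68 ± 0.26 in control and of 0.70 ± 0.26 under moderate drought (adjusted p = 0.033). The last call was lost without any of the Han21 moderate arrays, Ye478 moderate replicate 1 or Ye478 moderate replicate 3 (adjusted p up to 0.13). That call was also lost without the arrays numbered 1 or 3 (adjusted p up to 0.28). The change of -1.98 ± 0.37 was lost without the arrays numbered 2 (adjusted p = 0.052). Among the reversed probe sets, mbd109, for a methyl-DNA-binding domain protein, had -0.59 ± 0.12 under moderate drought and 0.36 ± 0.12 in control, and its change was lost without the arrays numbered 2 (adjusted p = 0.056).

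Marker genes of the drought response itself were looked at in the same way. All 5 tested genes for dehydrins and LEA proteins rose under moderate drought in both lines. Moderate drought raised 19.3% of all tested probe sets in Han21 and 23.6% in Ye478. The arrays of the lines did not overlap for 3 of the 5, against 49.9% of all tested probe sets. Of the 5, 1 was called between the lines, mlg3. It had 1186, 1478 and 1246 units in Han21 and 7126, 6405 and 6424 in Ye478 under moderate drought, a line difference of -2.35 ± 0.57 (adjusted p = 0.002), against -1.77 ± 0.57 in control. Of 7 genes for abscisic acid synthesis and signalling, 2 were higher in Han21 and 0 lower. Over all tested probe sets 42.7% were called. One was PP2C, for a protein phosphatase 2C, at 1.15 ± 0.18 and 1.19 ± 0.18 in control, and its second probe set gave -0.06 and was not called. Of 12 genes for the light reactions 3 were higher and 1 lower, and of 13 for carbon fixation 3 were higher and 2 lower.

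The gene lists can be read against their background. Of all 887 tested genes with a name, 219 were higher in Han21 and 172 lower under moderate drought, with a median line difference of 0.01. The lists with medians farthest above this were those of lignin, the cell wall and tubulins. Those farthest below it were defence and wound response (-1.03, with 1 of 7 higher and 3 lower), seed maturation (-0.80, with 0 of 7 higher and 2 lower, both of them tip3 aquaporins), antioxidant enzymes, and proteases and senescence. In control the defence list already had a median of -0.70 and the seed maturation list -0.56, and 0 members of either were of the absent class. All lists not named in this paragraph had medians under moderate drought between -0.07 and 0.46.

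**Figure D5:**
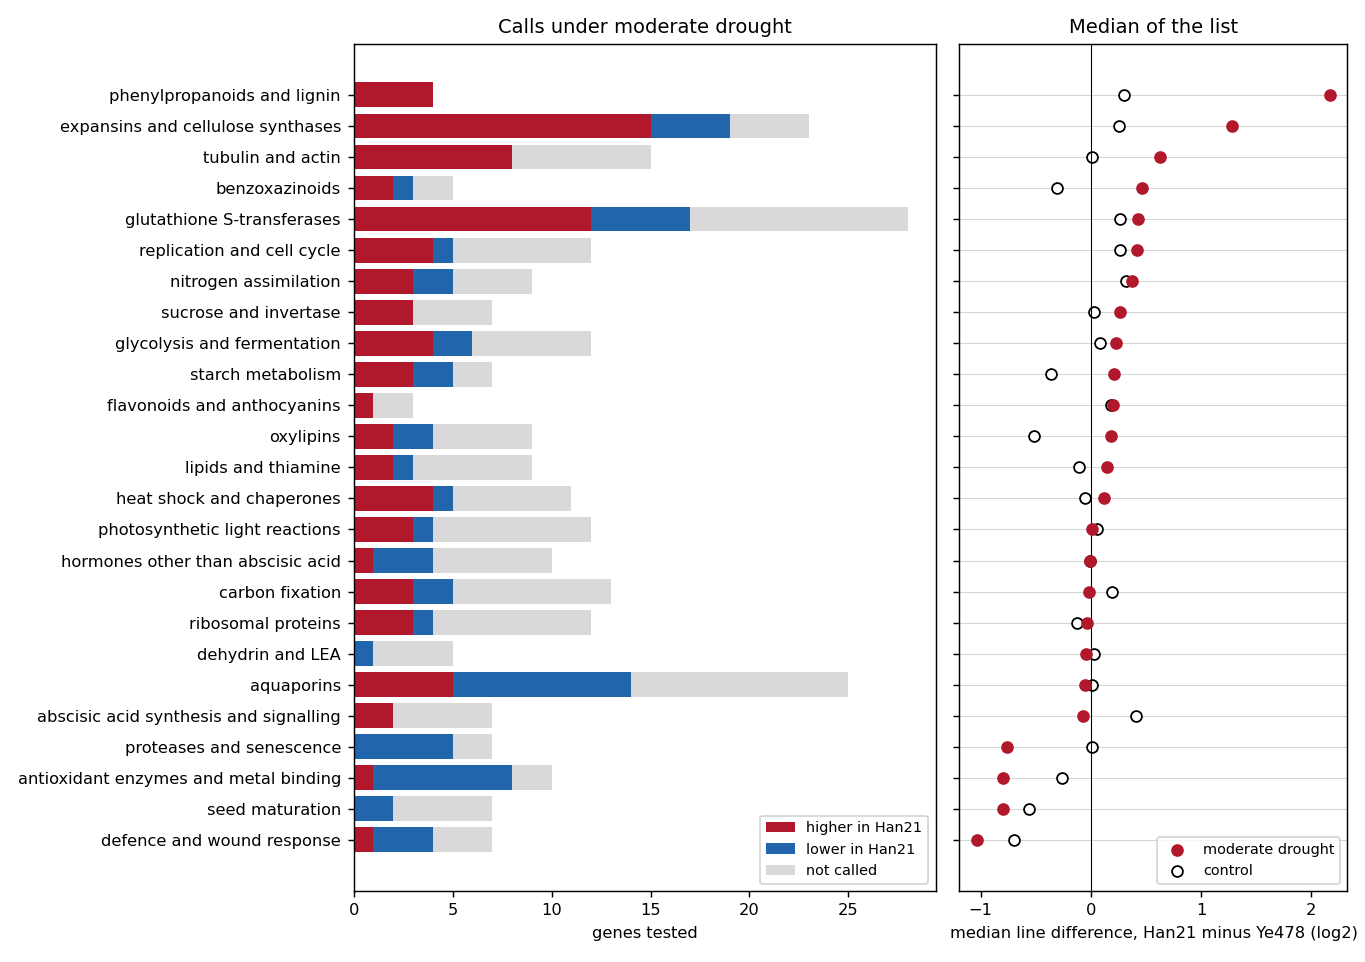
Left, number of tested genes of each of 25 lists called higher in Han21, called lower in Han21 or not called under moderate drought. Right, median line difference (Han21 minus Ye478, log2) of the list under moderate drought and in control. The lignin, cell wall and tubulin lists stand at 2.17, 1.29 and 0.62 under moderate drought, against 0.30, 0.25 and 0.01 in control.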

How the data were processed

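The deposited values are signal intensities on a linear scale. Per the submitters' processing notes they were made with GCOS and MAS5, whose versions are not given. The 2% trimmed mean lay at 500.1 to 500.2 on every array, which is the common scale the authors had set. No scanner files were used.

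Of 17734 probe sets, 113 control probe sets were left out, and the rest were kept if above the 40th percentile of the array on at least 3 arrays. A constant of 4.56 units (the 10th percentile over the whole table) was added before the log2 transform. All 24 arrays entered a single limma fit with 8 group means, with 16 residual and 5.01 prior degrees of freedom and a trended eBayes prior. Benjamini-Hochberg adjustment ran over all tested probe sets. The fit was tested on simulated data whose noise was independent between arrays. That test therefore says nothing about deviations shared by arrays of the same replicate number. The number of arrays limits the precision.

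The array annotation names 1 gene for 1452 probe sets, several for 1 and none for 16168. Symbols were looked up in RefSeq (maize assembly Zm-B73-REFERENCE-NAM-5.0, names only), which held 1060 of 1108 genes. Each gene is represented by its brightest probe set. Members and the 25 gene lists were chosen with earlier results of these data known. Named genes are, per state in control, the largest differences each way with separate arrays and adequate brightness (10 absent, 6 present, 4 reversed, 4 not placed), and up to 4 members per list by adjusted p. Of these 113 genes 71 appear in the text, with a few others where stated.

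Arrays that share a replicate number deviated together from their group means (r = 0.217 to 0.665 over probe sets), and a fit blocked by that number served as an alternative. Other alternatives were quantile normalization, median centring, other filters and constants, no trend, a fit of the 4 groups compared, a 2-fold limit, other limits on the control interval, all probe sets of a list and leaving out arrays. Tools were R 4.3.3, limma 3.58.1, Python 3.11.15, pandas 2.3.3, numpy 2.4.6 and matplotlib 3.10.9.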

Additional observations from a re-analysis of the deposited data

Results flagged for a closer look

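Of the 71 genes chosen by rule and named above, 50 had a line difference under moderate drought that differed from the line difference in control by the test of the change itself. Of the 50, 27 came from the class absent from control, which requires a called change, so this number was in part fixed by the choice of genes. Over all tested probe sets the change was called for 8.14%. The change was above 0 for 27. Among genes of the cell wall and lignin it was 3.07 for expa1, 2.35 for cesa11, 2.32 for bk2, 2.21 for CesA12, 2.16 for cesa10, 2.14 for BM1, 1.82 for 4CL, 1.64 for expB6, 1.60 for ccr2, 1.54 for CesA-9, 1.12 for cesa7 and 1.07 for CesA-4. Among cytoskeletal genes it was 2.50 for tub5, 2.17 for krp6 and 1.30 for tua5. It was 2.87 for amy5, 1.58 for GBSSIIa, 1.54 for gpc4, 1.17 for ivr2 and 1.04 for ss1 among genes of carbohydrate metabolism. It was 2.88 for gst12, 1.17 for gst5 and 0.92 for gst23 among glutathione S-transferases. The others were pip2d at 1.64, asn1 at 1.55, glu2 at 1.09 and bip2 at 0.90.

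The change was below 0 for 23 genes. Among aquaporin genes it was -5.0 for tip3a, -1.52 for pip2b, -1.38 for nip2b and -0.93 for the brighter probe set of pip2c, which was lost with median centring and without any one replicate number (adjusted p up to 0.23). It was -1.19 for lls1, -0.83 for BCH2, -0.93 for mir3, -0.87 for mir2, -0.72 for see2a and -0.63 for see2b. It was -2.22 for cat2, -1.99 for GST39, -1.98 for fht1, -1.64 for trm1, -1.62 for mas1, -1.61 for cda1, -1.59 for cda2 and -1.29 for ciszog1. The last 5 were FDX6 at -1.28, GLN6 at -1.09, PPCK1 at -1.08, abcf1 at -1.07 and mbd109 at -0.95. Groups of 3 arrays were too small for a test of single outlying arrays.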

How the results depend on the processing

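The number of probe sets called between the lines under moderate drought was 3724 to 5192 when arrays were left out, 6120 with the replicate number as a block, which kept all 5170 calls, and 2304 with a limit of 2-fold. In control the limit of 2-fold left 1704, and leaving out arrays left 2470 (without those numbered 2) to 3975. The change of the line difference was called for 1607 probe sets with the replicate block, 648 with the limit of 2-fold, 264 to 564 without one replicate number and up to 910 without one array. The absent class held 705 with the block, of which 403 were shared with the 445, 250 with the control interval limited to 0.58, 115 to 240 without one replicate number and 339 to 406 without one array. Fits that left out arrays had fewer samples. Other settings gave 380 to 504. No line difference of a named gene changed sign.

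Of the 113 named genes, 92 kept the call of their line difference in every alternative that tested them, and 19 kept that of the change. The state in control was less stable: 51 of the 113 kept it in every alternative, and 9 of the 32 in the absent class did. The absent class held in 16 of 24 alternatives for cesa11, 14 of 24 for 4CL, 13 of 24 for GST39 and 11 of 23 for ccr2. With the block, all 113 kept the call of their line difference, and among the genes described above it added a call of the change for pal3, tua6, sus1, cat1 and prpo1. Among lists, counts moved with all probe sets (dehydrins 2, tubulins and actin 14, lipids and thiamine 5), with the block (dehydrins 2), and without one replicate number. Without a number, the lowest and highest counts were 1 to 2 for abscisic acid, 3 to 4 for carbon fixation, 1 to 3 for defence, 0 to 1 for flavonoids, 2 to 6 for replication, 1 to 4 for seed maturation, 3 to 4 for starch, 11 to 15 for glutathione S-transferases, 3 to 5 for proteases and 1 to 2 for dehydrins, and the cause was not tested. Quantile normalization and median centring gave 51.1% and 50.4% of calls higher in Han21, against 53.3%. Genes near the brightness limit have sizes that depend on the constant.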
